A study of Mus musculus with 2 samples.

Results

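Immediate early genes are the first transcripts a cell makes when a signal, an injury or its removal from tissue reaches it. A set of 32 such genes was read out of 26033 listed genes, each matched by its symbol in the deposited feature lists. The members were picked by name, and earlier results of these data were known when the set was drawn up. It holds 8 AP-1 and related bZIP transcription factors, 8 zinc finger and nuclear receptor factors, 9 feedback and RNA decay genes and 7 other early response genes.

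Kinase cascades and preformed factors such as SRF, CREB and NF-kB switch these genes on without new protein synthesis. Their own products then close the response, because the dual specificity phosphatases silence MAP kinases, the inhibitors of NF-kB hold that factor back and the zinc finger proteins of the Zfp36 family destroy short-lived mRNAs. In brain macrophages, vessels and meninges the same genes respond to signals in the living tissue and to enzymatic dissociation and sorting, and RNA from sorted cells cannot tell these sources apart.

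Mrc1Cre:Csf1rfl/fl adult mice gave the mutant library. They express Cre under control of Mrc1, the mannose receptor gene, and are made to lose floxed Csf1r, which encodes the receptor of colony-stimulating factor 1, in cells where Mrc1 is or was active. Csf1rfl/fl adult mice, with the same floxed alleles and no Cre, gave the control library. Whole brain was sorted by surface proteins for endothelial cells, mural cells and fibroblasts, astrocytes, microglia and border-associated macrophages (BAMs), and the cells were loaded for droplet sequencing of transcript 3′ ends. There was 1 library per genotype, and the number of animals behind each is not given in the sources used here, so no test between genotypes exists and every interval below is a 95% interval for counting error only.

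The mutant library held 8735 barcodes with a median of 8236 unique molecular identifiers (UMIs, each marking 1 captured molecule), and the control library held 8739 with a median of 7998. After filters, 5792 mutant and 5298 control cells met the marker rule of exactly 1 class, and 17 barcode sequences occurred in both libraries. Csf1r stood at 1132 CPM (1063 to 1205) in mutant and 1356 CPM (1312 to 1402) in control BAM-like cells, where CPM is UMIs per 1000000 UMIs of the class. Its level in microglia-like cells was 1842 CPM in the mutant and 2333 CPM in the control, and since transcript 3′ ends can lie outside the deleted part, these levels do not check the deletion. Classes are written X-like because they rest on RNA markers alone. In 5 of the 6 compared classes, 4 or 5 of their markers stood among their 10 leading genes. Astrocyte-like cells had 0 of theirs there and 0 of another class, and 8 of their 9 markers were each detected in at least 25% of the cells in both libraries. The marker rule picked the cells by these same markers, so such counts largely follow from it and are no independent check of the class names.

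Promoters of members that were lower in the mutant in at least 2 of 6 cell classes are printed here, because theirs was the difference met in more than 1 class. That applied to Fos, Egr1, Ier2, Btg2, Zfp36, Dusp1 and Ccn1, and the sequences of 5 of them follow, from 250 bases before to 50 bases after the transcript start, as given by RefSeq on GRCm38.p6 and read 5′ to 3′ along the gene's strand. Capitals mark the cAMP response element TGACGTCA in Btg2 and Dusp1, a CArG box (the site of SRF) in Zfp36 and an NF-kB motif in Fos. Ccn1 held no match to a searched motif, and it was lower in BAM-like cells but not in fibroblast-like cells once the 3 cells per library with most member UMIs were left out.
The windows lie at chr12:85473640-85473939 (plus strand, Fos), chr1:134079106-134079405 (minus strand, Btg2), chr7:28379179-28379478 (minus strand, Zfp36), chr17:26508423-26508722 (minus strand, Dusp1) and chr3:145649936-145650235 (minus strand, Ccn1).
Fos: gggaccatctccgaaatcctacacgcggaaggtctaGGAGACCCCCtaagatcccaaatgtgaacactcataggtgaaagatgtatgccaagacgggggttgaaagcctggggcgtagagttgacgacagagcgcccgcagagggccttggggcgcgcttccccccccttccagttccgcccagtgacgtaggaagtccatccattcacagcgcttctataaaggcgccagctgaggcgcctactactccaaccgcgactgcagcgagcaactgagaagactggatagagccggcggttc
Btg2: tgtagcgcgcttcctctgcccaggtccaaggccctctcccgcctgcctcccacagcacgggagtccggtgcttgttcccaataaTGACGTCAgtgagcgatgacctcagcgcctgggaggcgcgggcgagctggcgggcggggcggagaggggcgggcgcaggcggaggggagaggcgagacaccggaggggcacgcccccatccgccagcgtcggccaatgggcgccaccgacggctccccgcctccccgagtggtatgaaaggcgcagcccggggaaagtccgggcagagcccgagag
Zfp36: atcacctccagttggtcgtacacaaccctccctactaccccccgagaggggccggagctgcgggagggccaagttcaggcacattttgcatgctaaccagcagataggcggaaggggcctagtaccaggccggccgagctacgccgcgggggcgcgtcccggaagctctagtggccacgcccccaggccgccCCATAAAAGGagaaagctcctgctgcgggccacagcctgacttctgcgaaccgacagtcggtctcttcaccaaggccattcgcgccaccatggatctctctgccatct
Dusp1: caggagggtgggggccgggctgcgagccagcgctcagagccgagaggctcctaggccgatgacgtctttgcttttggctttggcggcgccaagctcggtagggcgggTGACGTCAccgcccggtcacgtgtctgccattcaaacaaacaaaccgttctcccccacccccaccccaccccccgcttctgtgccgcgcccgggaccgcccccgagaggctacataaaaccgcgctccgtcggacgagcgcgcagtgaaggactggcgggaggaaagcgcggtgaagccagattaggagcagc
Ccn1: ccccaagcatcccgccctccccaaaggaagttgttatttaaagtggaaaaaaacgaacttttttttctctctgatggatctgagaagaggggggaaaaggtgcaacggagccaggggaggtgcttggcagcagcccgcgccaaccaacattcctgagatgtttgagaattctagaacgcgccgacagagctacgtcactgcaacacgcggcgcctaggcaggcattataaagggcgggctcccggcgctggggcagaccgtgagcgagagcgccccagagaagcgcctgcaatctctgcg

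RefSeq windows were matched for 27 of the 32 members, and Ccn2, Egr1, Egr3, Ier2 and Nfkbiz were not matched. The cAMP response element TGACGTCA, searched on both strands, occurred in 3 of the 27 members (Btg2, Dusp1 and Maff) and in 2.03% of 27025 genes. It began 166 bases upstream of the start in Btg2 and 143 bases upstream in Dusp1. A CArG box occurred in 2 members (Egr2 and Zfp36) and in 1.81% of genes, and in Zfp36 it began 58 bases upstream of the start. An NF-kB motif occurred in 8 members (Egr2, Fos, Fosb, Fosl2, Ier3, Maff, Nfkbia and Nr4a1) and in 9.55% of genes, and the AP-1 motif TGANTCA in 1 member (Zfp36l1) and in 8.97% of genes. A match describes these letters in this window and is not evidence of a bound factor.

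The 32 members together made up 4642 CPM (4455 to 4835) in mutant and 4955 CPM (4750 to 5165) in control endothelial-like cells, the highest summed level of the compared classes in both libraries. BAM-like cells followed with 3150 CPM (3034 to 3269) in the mutant and 4007 CPM (3930 to 4085) in the control. Fibroblast-like cells held 2121 CPM in the mutant and 2640.3 CPM in the control, and microglia-like cells 1939 and 2224 CPM in the same order of libraries. Astrocyte-like cells, at 616 CPM in the mutant and 670.0 CPM in the control, and choroid plexus epithelium-like cells, at 429 CPM in the mutant and 413 CPM in the control, stood lowest. The order of the 6 classes was the same in both libraries. Single cells spread widely around these sums: among BAM-like cells the summed level ran, as 10th percentile, median and 90th percentile, at 995, 2742 and 6259 CPM in the mutant and at 1302, 3558 and 6894 CPM in the control.

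Each class had its own leading members, and a UMI counts each molecule once whatever its length, so these levels need no scaling by transcript length. Rhob, a small GTPase of endosomes, led microglia-like cells at 355 CPM in the mutant and 411 CPM in the control, ahead of the mRNA decay factor Zfp36l1 at 258 and 288 CPM and the antiproliferative gene Btg1 at 214 and 234 CPM, mutant value first. Klf2, a shear stress responsive factor of endothelium, led endothelial-like cells at 742 CPM in the mutant and 1089 CPM in the control. It also led fibroblast-like cells, at 385 CPM in the mutant and 408 CPM in the control. Zfp36l1 led BAM-like cells at 564 CPM in the mutant and 637 CPM in the control, and astrocyte-like cells at 145 CPM in the mutant and 136 CPM in the control. Jund, the constitutive member of the Jun family, led choroid plexus epithelium-like cells at 177 CPM in the mutant and 184 CPM in the control. In BAM-like cells Jun came next, at 349 CPM in the mutant and 471 CPM in the control, followed by Btg1 at 221 CPM in the mutant and by Btg2 at 263 CPM in the control. In fibroblast-like cells Zfp36l1 and Jund followed, at 324 and 293 CPM in the mutant and 347 and 301 CPM in the control. Fos was not among the 3 leading members of any class.

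**Figure D1:**
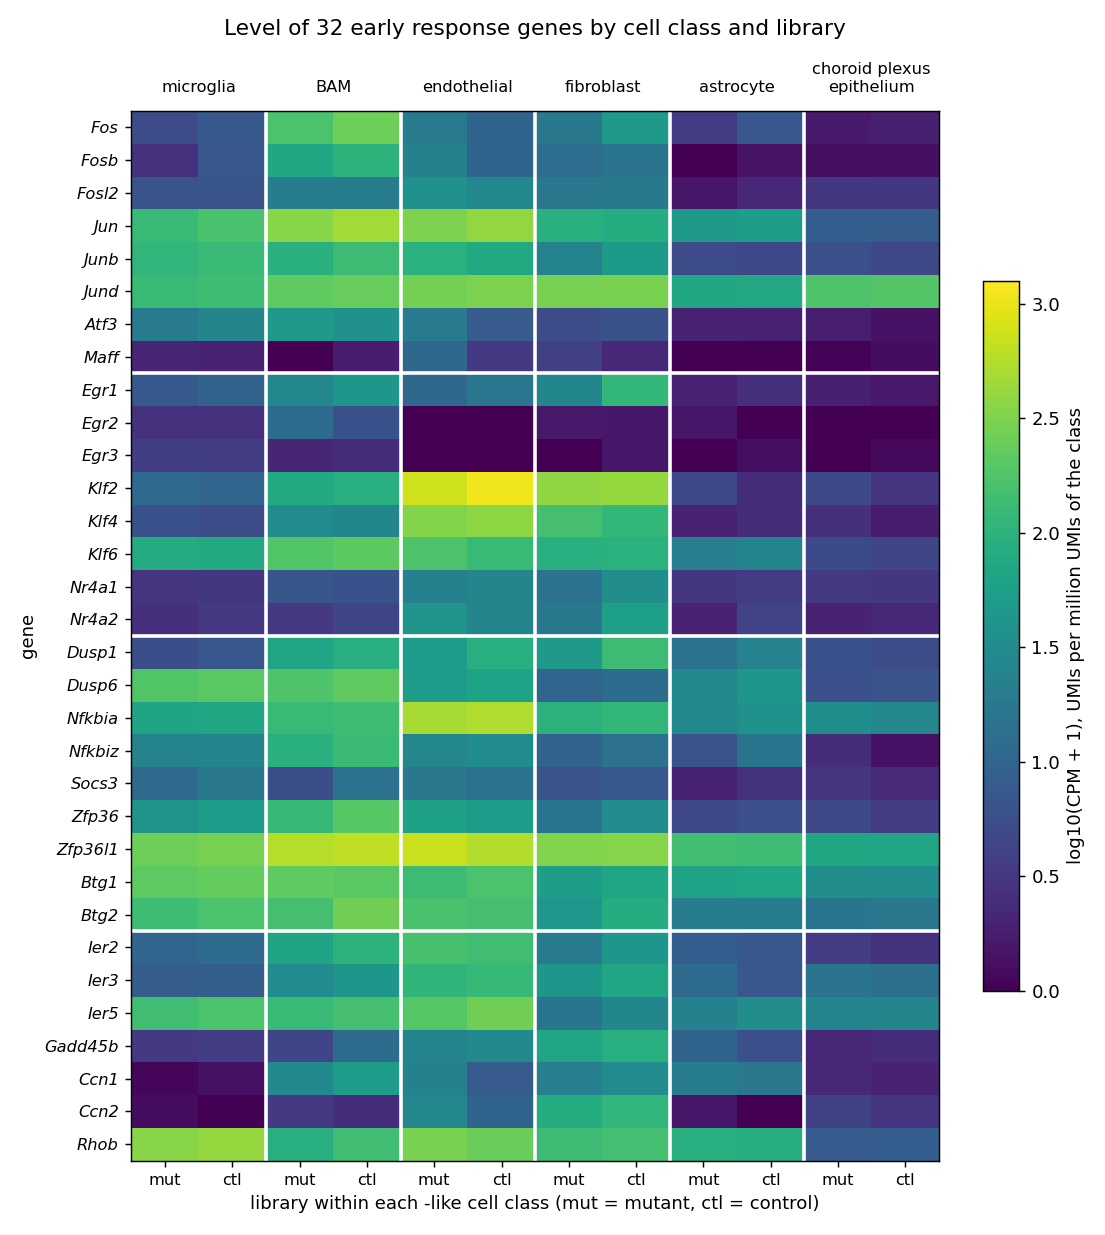
Level of each of the 32 members, as log10(CPM + 1), in 6 marker-gated cell classes, with the mutant library left of the control library in each pair of columns and the members grouped by role. The BAM and endothelial columns are brightest, Klf2 reaches 742 CPM in mutant and 1089 CPM in control endothelial-like cells, and Egr2, Egr3 and Maff stay dark in most columns.

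Among the AP-1 factors, Fos (ENSMUSG00000021250, chromosome 12, 85473890 to 85477273, plus strand, GRCm38), the prototype inducible partner of Jun, was a BAM gene in both libraries. It stood at 167 CPM in mutant and 257 CPM in control BAM-like cells. The next class was endothelial-like at 18.1 CPM in the mutant and fibroblast-like at 46.8 CPM in the control, and the lowest was choroid plexus epithelium-like at 0.698 CPM in the mutant and 0.867 CPM in the control. Fos was detected in 39.4% of mutant and 56.5% of control BAM-like cells, against 0.659% of mutant and 1.61% of control choroid plexus epithelium-like cells, which had the larger median depth (14704 and 17082 UMIs against 7849 and 7720 in BAM-like cells, mutant first). Fosb was also highest in BAM-like cells, at 71.4 CPM in mutant and 100.1 CPM in control cells of that class. Jun stood at 349 CPM in mutant and 471 CPM in control BAM-like cells, next to 319.9 CPM in mutant and 396 CPM in control endothelial-like cells, and the counting intervals of these neighbours overlapped in both libraries. Junb stood at 108 CPM in mutant and 121 CPM in control microglia-like cells, at 91.8 CPM in mutant and 134 CPM in control BAM-like cells and at 94.6 CPM in mutant and 76.0 CPM in control endothelial-like cells, so its leading class differed between the libraries. Atf3, a stress induced repressor, was highest in BAM-like cells at 46.5 CPM in the mutant and 36.3 CPM in the control. Jund, at 71.8 CPM or more in every compared mutant class and 73.0 CPM or more in every control class, had its highest levels outside the compared classes, at 588 CPM in mutant and 657 CPM in control ependymal-like cells (41 and 25 cells).

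The zinc finger and nuclear receptor factors divided by vessel, border and macrophage. Klf4 (ENSMUSG00000003032, chromosome 4, 55527143 to 55532466, minus strand), which maintains vessel quiescence, stood with Klf2 in endothelial-like cells at 336 CPM in the mutant and 373 CPM in the control, then in fibroblast-like cells at 151 CPM in the mutant and 113 CPM in the control. The endothelial intervals were apart from those of all other compared classes in both libraries. Klf6, a wound response factor, was highest in BAM-like cells at 180.2 CPM in the mutant and 206 CPM in the control. In the mutant its interval overlapped that of endothelial-like cells, at 171 CPM. Egr1, a growth factor response factor, was highest in mutant BAM-like cells at 26.1 CPM but in control fibroblast-like cells at 112 CPM, so here too the leading class differed. Egr2 stayed at 11.3 CPM in mutant and 5.02 CPM in control BAM-like cells, and Egr3 at 2.81 CPM in mutant and 2.68 CPM in control microglia-like cells. The orphan nuclear receptors Nr4a1 and Nr4a2 were highest in mutant endothelial-like cells, at 22.1 and 40.2 CPM, and in control fibroblast-like cells, at 33.0 and 54.6 CPM.

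Feedback and RNA decay genes were the most abundant role group in microglia-like cells, summing to 935 CPM in the mutant and 1055 CPM in the control. Dusp6, the phosphatase of ERK, stood at 183 CPM in mutant and 204 CPM in control microglia-like cells, at 175 CPM in mutant and 219 CPM in control BAM-like cells and at 50.3 CPM in mutant and 62.6 CPM in control endothelial-like cells. Nfkbia, the inhibitor of NF-kB, was endothelial, at 491 CPM in the mutant and 534 CPM in the control against 121 and 134 CPM, mutant first, in BAM-like cells, the next class. Nfkbiz, an atypical nuclear inhibitor, was highest in BAM-like cells at 91.8 CPM in the mutant and 129 CPM in the control. Zfp36 (ENSMUSG00000044786, chromosome 7, 28376784 to 28380253, minus strand), which targets cytokine mRNAs for decay, was highest there too, at 117 CPM in the mutant and 194 CPM in the control. Socs3, the feedback inhibitor of cytokine receptors, stayed at or below 16.1 CPM in every mutant class and 16.2 CPM in every control class. Of the other early response genes, the matricellular gene Ccn2 and the stress gene Gadd45b were fibroblast genes, Ccn2 at 82.4 CPM in the mutant and 109 CPM in the control and Gadd45b at 66.0 CPM in the mutant and 86.9 CPM in the control. For Ccn2, 1 control fibroblast-like cell held 45.9% of the UMIs. Ier2, Ier3 and Ier5 were highest in endothelial-like cells, Ier2 at 155 CPM in the mutant and 141 CPM in the control. Over the whole set, 21 of 32 members had the same leading class in both libraries, 9 of them BAM-like, 8 endothelial-like, 2 microglia-like and 2 fibroblast-like, and for 13 of these the leading interval was apart from the next in both libraries.

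The comparison between the libraries asks whether cells of the mutant differed in this response. Members with 50 or more UMIs in a class, both libraries together, were counted as measured there. The size rule asked for mutant and control CPM to differ by 1.5 times or more in either direction, and for a counting interval of the ratio without 1. All 32 members were measured in at least 1 class, 13 in all 6 classes, and 18 met the size rule somewhere. The remaining 14, among them Jun, Jund, Klf6, Nfkbia, Zfp36l1 and Btg1, met it nowhere. Fibroblast-like and BAM-like cells held most of the differences, all toward lower levels in the mutant. In fibroblast-like cells 12 of 27 measured members were lower and 0 higher, beside 3.56% and 3% of 9943 measured genes. In BAM-like cells 7 of 24 were lower and 0 higher, beside 2.94% and 3.79% of 7519 genes. Microglia-like cells had 2 of 30 lower and 0 higher, beside 4.15% and 2.55% of 12761 genes, which is close to the background. Astrocyte-like cells had 3 of 15 lower and 1 higher, beside 2.02% and 4.2% of 10558 genes, endothelial-like cells 1 of 17 lower and 0 higher, beside 4.28% and 4% of 4020 genes, and choroid plexus epithelium-like cells 0 of 19 lower and 1 higher, beside 1.62% and 2.06% of 10709 genes.

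**Figure D2:**
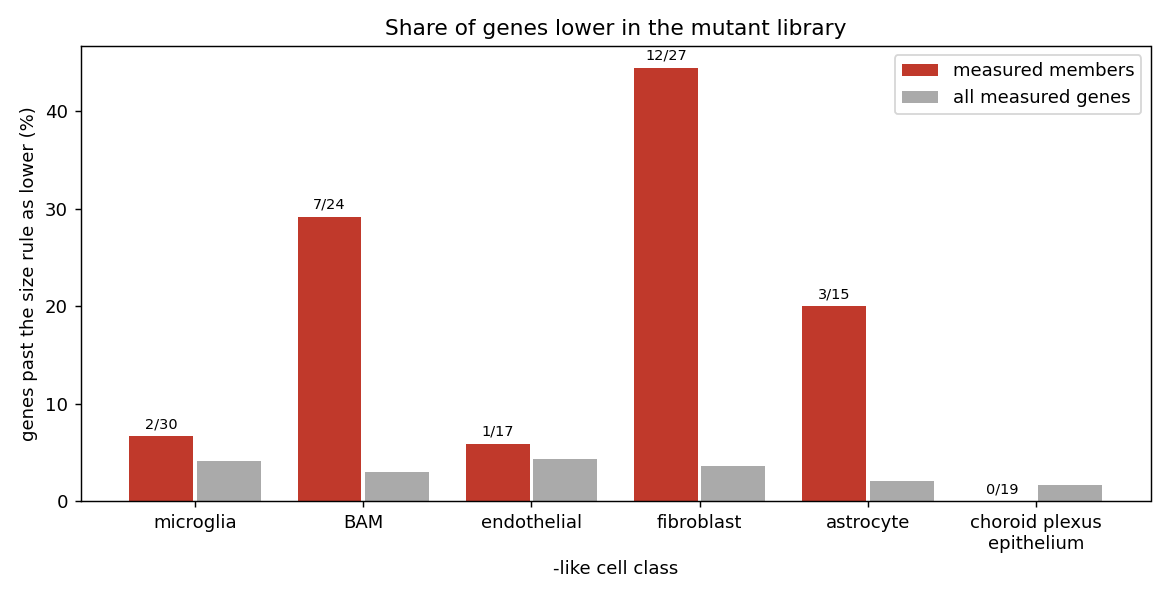
Percentage of measured members (red) and of all measured genes (grey) that met the size rule as lower in the mutant library, for 6 cell classes, with the number of members over those measured above each red bar. The red bars stand at 44.4% in fibroblast-like and 29.2% in BAM-like cells, and the grey bars at 3.56% and 2.94% there.

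The BAM-like class, the one that expresses Mrc1, had 99 mutant and 232 control cells. Btg2 (ENSMUSG00000020423, chromosome 1, 134075170 to 134079120, minus strand), an antiproliferative cofactor of mRNA deadenylation, stood at 152 CPM in the mutant and 263 CPM in the control (ratio 0.576, 0.475 to 0.695). Zfp36, at the levels given above, had a ratio of 0.603 (0.483 to 0.747), and Fos one of 0.649 (0.539 to 0.777). The share of BAM-like cells with a UMI was also lower in the mutant for these genes, at 48.5% against 67.7% in the control for Btg2 and at 42.4% against 59.1% for Zfp36. Ccn1, a matricellular gene that Hippo signalling controls, stood at 28.3 CPM in the mutant and 50.2 CPM in the control (ratio 0.564, 0.352 to 0.871). Rhob stood at 87.3 CPM in the mutant and 139 CPM in the control (ratio 0.629, 0.485 to 0.807). Ier2, an early nuclear factor, stood at 63.5 CPM in the mutant and 100.1 CPM in the control (ratio 0.634, 0.466 to 0.850). Egr1 stood at 26.1 CPM in the mutant and 42.5 CPM in the control (ratio 0.613, 0.373 to 0.968), on only 23 mutant and 110 control UMIs. In all, 21 of 24 measured members had a ratio under 1, and the 3 above 1 were Atf3 (1.28, 0.864 to 1.87), Klf4 (1.22, 0.748 to 1.94) and Btg1 (1.10, 0.932 to 1.30), whose intervals include 1. On the log2(CPM + 1) scale, the measured members had a median difference of -0.42, against 0.01 over all measured genes of the class, and the summed level had a ratio of 0.786 (0.754 to 0.820).

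The mutant and control BAM-like cells were not the same mix. MHC class II genes, which mark a BAM subset, were higher in the mutant, with Cd74 at 2783 CPM in the mutant and 1560.0 CPM in the control. Split after seeing the data at 2000 CPM of 4 such genes, the cells low in them numbered 68 in the mutant and 201 in the control, and 10 of their 23 measured members were lower and 0 higher, beside 3.16% and 5.08% of 6654 genes. Their summed member level was 2824 CPM in the mutant and 4119 CPM in the control. Fos stood there at 118 CPM in the mutant and 282 CPM in the control (ratio 0.418, 0.320 to 0.538). The cells high in these genes, 31 in each library, had a summed level of 3770 CPM in the mutant and 3641 CPM in the control, with 3 of 18 measured members lower (Dusp6, Klf2 and Rhob) and 1 higher (Btg1), beside 5.25% and 3.88% of 3297 genes. There Fos stood at 259.9 CPM in the mutant and 176 CPM in the control (ratio 1.47, 1.09 to 1.99), Btg2 had a ratio of 1.01 (0.747 to 1.34) and Zfp36 one of 0.947 (0.674 to 1.32). The difference between the subsets was not tested. Without the 3 cells per library that held most member UMIs, 9 of 24 members were lower, beside 3.05% of 7305 genes. Under a mitochondrial limit of 5% there were 2 of 23, and after thinning each cell to 2000 UMIs 4 of 18. At a fold of 2 there were 0 of 24. The share of all genes under these last settings is not given here, so these counts cannot be read against the background.

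Fibroblast-like cells, the collagen-producing cells of perivascular spaces and meninges, numbered 395 in the mutant and 141 in the control. Egr1 stood at 25.4 CPM in the mutant and 112 CPM in the control (ratio 0.226, 0.179 to 0.285). Nr4a2, an orphan nuclear receptor, stood at 16.9 CPM in the mutant and 54.6 CPM in the control (ratio 0.309, 0.227 to 0.421). Dusp1 (ENSMUSG00000024190, chromosome 17, minus strand), the phosphatase of p38 and JNK, stood at 46.1 CPM in the mutant and 131 CPM in the control (ratio 0.353, 0.291 to 0.427). Fos stood at 16.7 CPM in the mutant and 46.8 CPM in the control (ratio 0.356, 0.258 to 0.492). A few control cells held much of these counts, since 1 of 141 control cells held 25.6% of the Fos UMIs, 15.6% of the Dusp1 UMIs and 14.97% of the Egr1 UMIs. The shares of cells with a UMI differed less, at 9.37% in the mutant and 19.1% in the control for Egr1, at 11.9% in the mutant and 19.9% in the control for Fos and at 31.4% in the mutant and 41.1% in the control for Dusp1. The median depth was 11178 UMIs in mutant and 10381 in control cells.

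The other members lower in fibroblast-like cells had ratios from 0.431 to 0.657. Nr4a1 had a ratio of 0.431 (0.298 to 0.625), Ier2 one of 0.442 (0.319 to 0.613), Junb one of 0.483 (0.359 to 0.651) and Zfp36 one of 0.494 (0.340 to 0.723). Btg2 (0.541, 0.435 to 0.675), Ier5 (0.589, 0.397 to 0.882), Ier3, an apoptosis regulator (0.629, 0.498 to 0.798), and Ccn1 (0.657, 0.464 to 0.941) completed the 12. Without the 3 cells per library with most member UMIs 11 of 27 were lower, beside 3.39% of 9908 genes, and Ccn1 was not among them (0.761, 0.527 to 1.12). Members with a high level in most cells differed little, with Klf2 at a ratio of 0.944 (0.864 to 1.03), Zfp36l1 at 0.934 (0.849 to 1.03) and Jund at 0.974 (0.879 to 1.08). Klf4 stood higher at 151 CPM in the mutant and 113 CPM in the control (ratio 1.34, 1.14 to 1.58), which did not reach the size rule. On the same log2 scale, the 27 measured members had a median of -0.39, against 0.02 over all measured genes, and 25 had a ratio under 1.

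The fibroblast-like class held more than 1 kind of cell. Slc6a13, a transporter gene of one brain fibroblast type, stood at 52.6 CPM in the mutant and 249 CPM in the control, and Slc47a1, of another, at 1555 CPM in the mutant and 1431 CPM in the control. Among cells with a Slc47a1 UMI (354 mutant and 107 control cells, a split made after seeing the data), 11 of 26 measured members were lower, beside 2.04% of 9533 genes, and 1, Ccn2, was higher (1.51, 1.14 to 2.02), beside 2.87%. Egr1 stood there at 19.9 CPM in the mutant and 111 CPM in the control. Among cells without one (41 mutant and 34 control cells), 0 of 11 measured members were lower, beside 8.08% of 2586 genes, a share at which 0 of 11 is near the background. Of the same 11, 1 was higher, namely Jun, on 39 mutant and 11 control UMIs, beside 9.94% of genes, and Egr1 stood at 96.3 CPM in the mutant and 116 CPM in the control. The difference between these kinds was not tested. The count of 12 was 2 of 13 measured members under a mitochondrial limit of 5% and 3 of 15 after thinning each cell to 2000 UMIs. These settings leave fewer UMIs per gene, and the share of all genes under them is not given here.

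**Figure D3:**
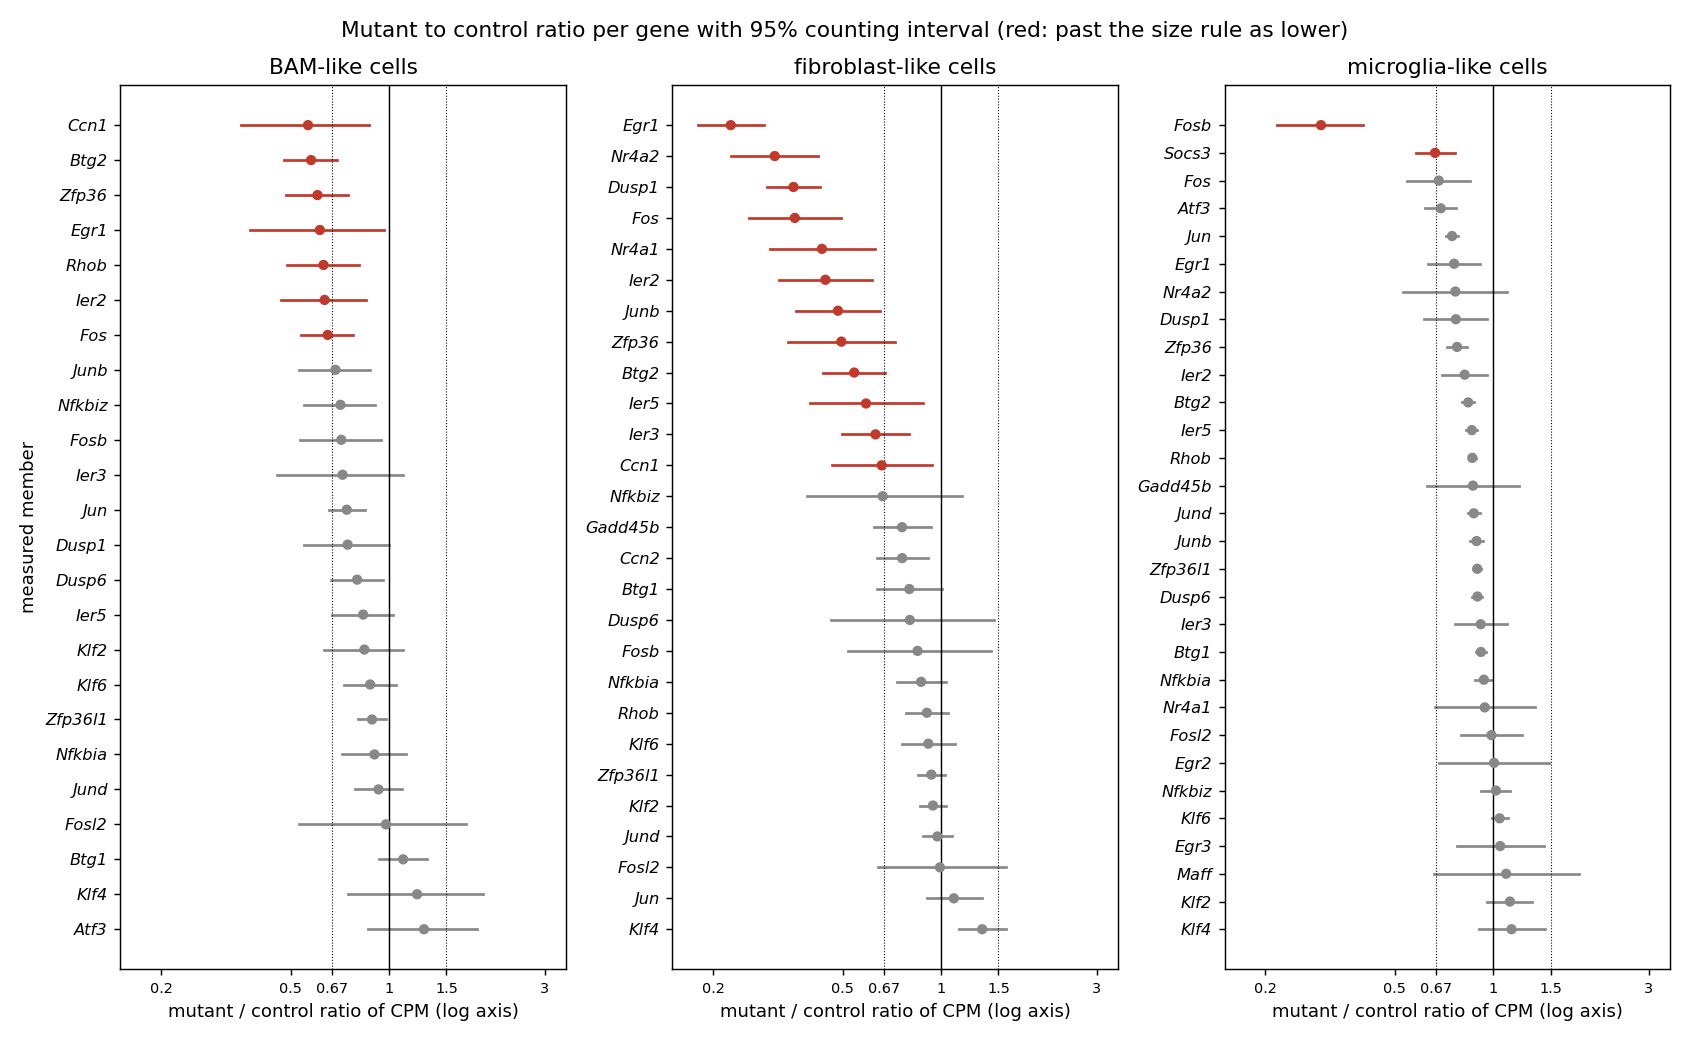
Ratio of mutant to control CPM on a log axis for each measured member, with its 95% counting interval, in BAM-like, fibroblast-like and microglia-like cells, where dotted lines mark the 1.5-fold limits and red marks members that met the size rule as lower. Most points lie left of 1 in all 3 panels, and the ratio of Egr1 in fibroblast-like cells, 0.226, is the smallest.

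Microglia-like cells, with 3733 mutant and 3447 control cells, had the tightest counting intervals and small differences. Fosb stood at 1.77 CPM in the mutant and 5.98 CPM in the control (ratio 0.296, 0.217 to 0.3997), and was detected in 1.26% of mutant cells, against 4.35% of control ones. Socs3 stood at 10.8 CPM in the mutant and 16.2 CPM in the control (ratio 0.664, 0.578 to 0.762). Both are low in this class, and for Fosb the level was small beside that of BAM-like cells. Mrc1, the BAM marker, reached 11.8 CPM in mutant and 35.6 CPM in control microglia-like cells, which is 0.328% of its BAM-like level in the mutant and 0.745% in the control. For Fosb the same percentage was 2.48% in the mutant and 5.98% in the control, and for Fos 2.59% and 2.46%. The part of BAM RNA in these levels was not tested. The abundant members were lower by less than the size rule asks: Jun had a ratio of 0.748 (0.718 to 0.780), Btg2 one of 0.838 (0.805 to 0.873), Rhob one of 0.863 (0.842 to 0.885) and Dusp6 one of 0.895 (0.864 to 0.927). Of the 30 measured members 23 had a ratio under 1, and the summed level of the set had a ratio of 0.872 (0.862 to 0.881). On the same log2 scale, the measured members had a median of -0.16, against -0.02 over all measured genes of the class. Classes from clustering without the member genes gave 6 lower members in place of 2, with no share of all genes given beside that count. The interval does not cover the spread between animals, which cannot be told apart from genotype with 1 library each.

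Endothelial-like cells had 149 mutant and 114 control cells and 17 measured members. Dusp1 was the 1 that met the rule, at 50.3 CPM in the mutant and 89.4 CPM in the control (ratio 0.562, 0.327 to 0.950). Klf2, the leading member, had a ratio of 0.682 (0.594 to 0.782), just short of it, while Zfp36l1 stood at 714 CPM in the mutant and 552 CPM in the control (1.29, 1.10 to 1.53). Plvap, a gene of fenestrated vessels, stood at 159 CPM in the mutant and 736 CPM in the control in this class, and the part of that difference in the member levels was not tested. In astrocyte-like cells Nfkbiz stood at 5.32 CPM in the mutant and 15.1 CPM in the control (0.351, 0.163 to 0.674). Dusp1 stood at 14.4 CPM in the mutant and 22.9 CPM in the control (0.628, 0.4003 to 0.951), and Dusp6 at 27.1 CPM in the mutant and 42.7 CPM in the control (0.636, 0.462 to 0.860). Ier3 was higher, at 11.2 CPM in the mutant and 6.03 CPM in the control (1.85, 1.04 to 3.23), on 21 mutant and 39 control UMIs. Under a mitochondrial limit of 5% or after thinning, 0 members were lower in astrocyte-like cells. With equal weight per cell 4 were lower in endothelial-like cells. The share of all genes under these settings is not given here. In choroid plexus epithelium-like cells Klf2 was higher, at 3.90 CPM in the mutant and 1.91 CPM in the control (2.04, 1.25 to 3.47), detected in 4.52% of mutant cells against 3.54% of control ones, with 16.4% of the mutant UMIs in 1 cell. The part of free RNA in this low level was not tested.

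Leaving out the 3 cells per library with most member UMIs, a setting added after seeing the data, had these effects in the 6 classes. In microglia-like cells 3 of 30 measured members were lower (Fos, Fosb and Socs3), beside 4.23% of 12744 genes, and 0 were higher, beside 2.51%. In BAM-like cells 0 were higher, beside 4.37%, and in fibroblast-like cells 0 were higher, beside 3.15%. In endothelial-like cells Dusp1 was still the 1 of 16 that was lower, beside 4.27% of 3867 genes, and 0 were higher, beside 3.88%. In astrocyte-like cells 3 of 15 were lower, beside 2.07% of 10460 genes, and 0 were higher, beside 4.17%, since Ier3 then had a ratio of 1.80 (0.994 to 3.18). In choroid plexus epithelium-like cells 0 of 19 were lower, beside 1.71% of 10672 genes, and 2 were higher, beside 2.21%, namely Klf2 (2.02, 1.23 to 3.44) and Junb (1.54, 1.001 to 2.40).

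Genes of the same response outside the set, in lists that were written with earlier results known, were counted by class as well. Of 20 measured further immediate early genes in fibroblast-like cells, 7 were lower and 0 higher, beside the 3.56% and 3% of all measured genes given above. In that class Ptgs2, the inducible cyclooxygenase, stood at 5.28 CPM in the mutant and 22.8 CPM in the control (0.232, 0.135 to 0.392). Nr4a3, the third NR4A receptor gene, had a ratio of 0.350 (0.207 to 0.592) in the same fibroblast-like cells. Spry1, an inhibitor of receptor tyrosine kinase signalling, had one of 0.351 (0.201 to 0.612) there, and Gadd45a, a stress sensor, one of 0.486 (0.277 to 0.867). Single cells held many of these UMIs too, with 28.9% of the control Ptgs2 UMIs in 1 cell. In BAM-like cells 0 of 13 such genes were lower, beside 2.94% of all genes, and 1 was higher, beside 3.79%, namely the interferon response factor gene Irf1 (1.84, 1.32 to 2.55). In microglia-like cells 3 of 28 were lower and 0 higher, beside 4.15% and 2.55% of all genes, namely Gem (0.420, 0.286 to 0.610), Spry2 (0.364, 0.199 to 0.638) and Gadd45a (0.595, 0.364 to 0.955), all at or below 3.05 CPM in both libraries. In astrocyte-like cells 2 of 16 were higher and 0 lower, beside 4.2% and 2.02% of all genes. Rgs2, a regulator of G protein signalling, stood there at 47.4 CPM in the mutant and 15.5 CPM in the control (3.06, 2.28 to 4.12). A single cell held 21.3% of its mutant UMIs. In microglia-like cells Rgs2 stood at 387 CPM in the mutant and 442 CPM in the control, and the part of microglial RNA was not tested. The other was Cebpd (1.52, 1.06 to 2.14), with 12.2% of the mutant UMIs in 1 cell. In choroid plexus epithelium-like cells 1 of 16 was higher and 0 lower, beside 2.06% and 1.62% of all genes, namely the clock gene Per1 (2.06, 1.31 to 3.35). In endothelial-like cells 1 of 8 was higher and 0 lower, beside 4% and 4.28% of all genes, namely the repressor gene Klf10 (1.76, 1.03 to 3.09).

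The kinases and factors upstream of these genes were counted too. In BAM-like cells 0 of 20 measured upstream regulators met the size rule, beside 2.94% of all genes lower and 3.79% higher. In fibroblast-like cells it was 0 of 21, beside 3.56% and 3%, so both counts are near the background. Their median log2 ratios were 0.05 and 0.07. Of 19 in endothelial-like cells, Mapk9 was higher (2.56, 1.33 to 5.25), beside 4% of all genes. Stat3 was lower there (0.645, 0.436 to 0.948), beside 4.28%. Of 21 in astrocyte-like cells, Mapkapk2 was lower (0.615, 0.393 to 0.931), beside 2.02%. Heat shock genes, which respond to protein damage, had 0 members past the size rule in any of the 6 classes, with 7 to 12 of 12 measured. All measured genes had 1.62% to 4.28% lower and 2.06% to 4.2% higher over these classes, so 0 is near the background. Of 7 dissociation-linked chemokines and cytokines measured in microglia-like cells, 2 were lower and 0 higher, beside 4.15% and 2.55% of all genes, and 5 were neither. Ccl3 stood at 23.1 CPM in the mutant and 49.5 CPM in the control (0.466, 0.427 to 0.509), with 12.4% of the control UMIs in 1 cell. Ccl4 stood at 44.9 CPM in the mutant and 95.9 CPM in the control (0.469, 0.440 to 0.499), with 21.4% of the mutant UMIs in 1 cell. In BAM-like cells 1 of 5 was higher and 0 lower, beside 3.79% and 2.94% of all genes. It was the monocyte chemoattractant gene Ccl2, at 203 CPM in the mutant and 83.4 CPM in the control (2.43, 1.98 to 2.98), with 21.8% of the control UMIs in 1 cell.

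Members were found together in the same cells more often than independent detection would give. After each cell was thinned to 2000 UMIs, the number of the 32 members with a UMI averaged 4.35 in mutant and 5.38 in control BAM-like cells. Its variance over cells was 2.16 times in the mutant and 2.35 times in the control what independent members would give, as a mean of 20 thinnings. The same ratio was 1.86 in mutant and 2.13 in control endothelial-like cells, 1.45 in mutant and 1.78 in control fibroblast-like cells, and 1.35 in mutant and 1.39 in control microglia-like cells. It stood at 1.22 in astrocyte-like cells of both libraries, and at 1.07 in mutant and 1.02 in control choroid plexus epithelium-like cells. The latter averaged only 0.749 members per cell in the mutant and 0.738 in the control. This ratio lies nearer 1 where few members are detected, so it does not show that members were independent there. Nor does it rank the classes by how closely members go together. A list of 22 upstream regulators, thinned in the same way, gave ratios from 0.964 to 1.12 over all 12 pairs of class and library. At least 10 members were found in 3.49% of mutant and 9.17% of control BAM-like cells, where independence would give 0.395% in the mutant and 2.05% in the control. Cells that are alike in kind but differ in subset also raise this ratio, and the part of subsets in it was not tested.

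**Figure D4:**
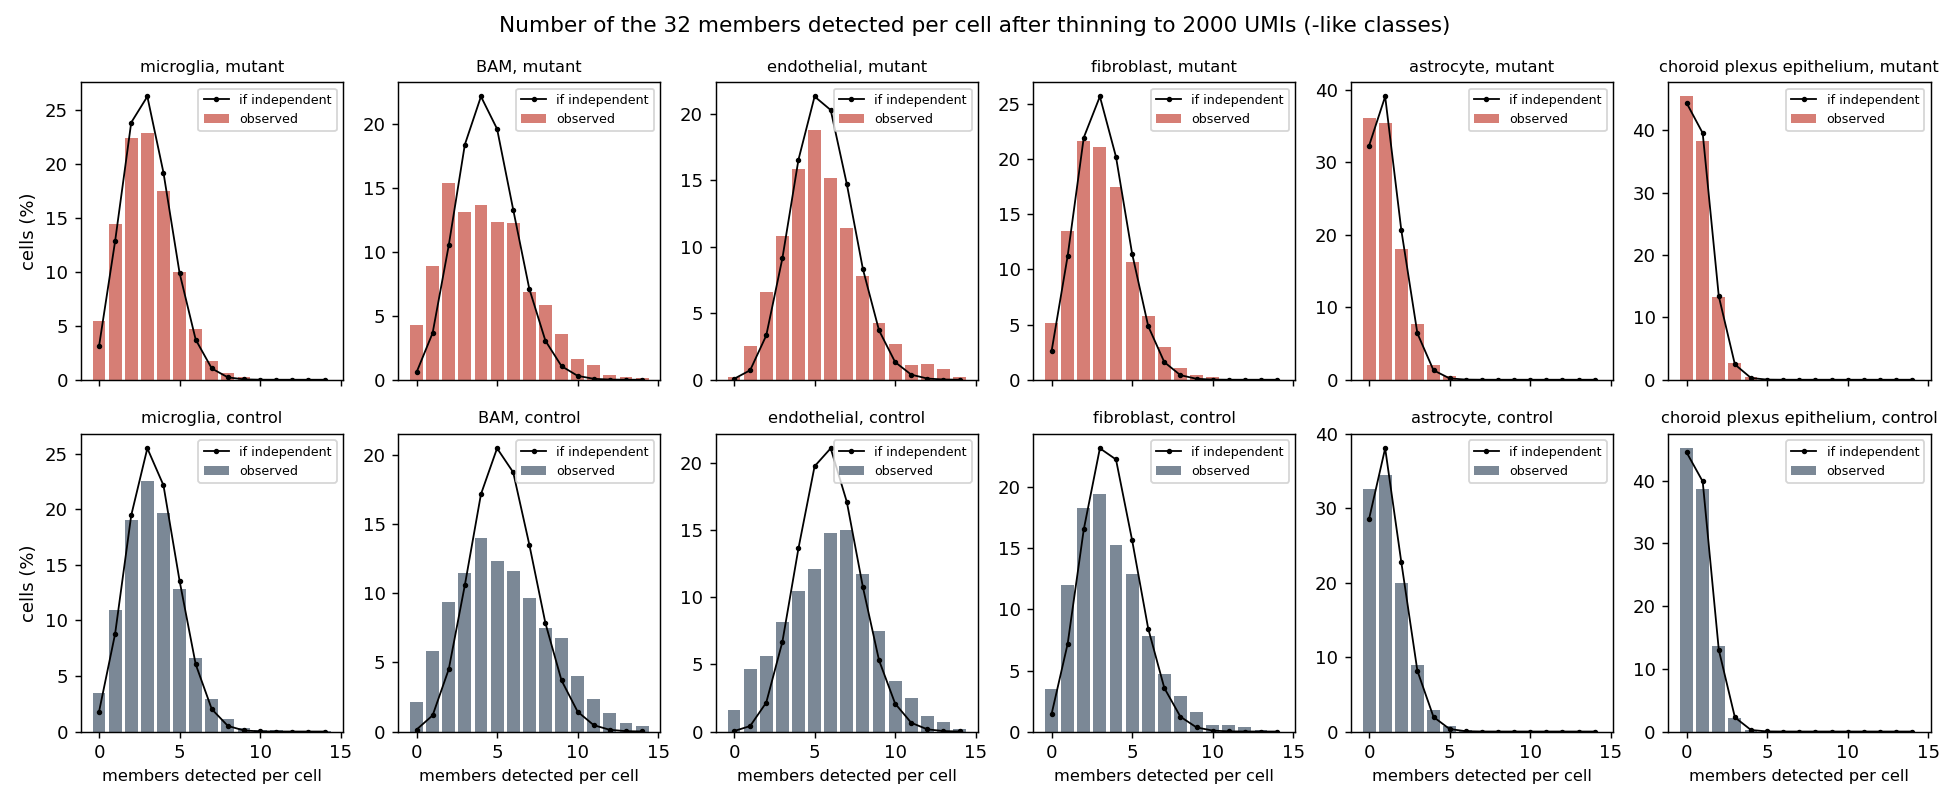
Percentage of cells (bars) by number of the 32 members detected after thinning to 2000 UMIs, with mutant cells in the upper and control cells in the lower row for 6 cell classes, and the distribution expected if members were detected independently (black line). Bars exceed the line at both ends in BAM-like and endothelial-like cells and follow it in choroid plexus epithelium-like cells, where 45.4% of mutant and 45.2% of control cells held 0 members.

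The same comparison was made for pairs of members. In BAM-like cells 92 pairs had at least 3 expected cells with both genes in both libraries, and 75 of them were found together more often than independent detection would give in both. The pair with the highest smaller ratio was Fos with Zfp36, found together 1.73 times as often in the mutant and 1.49 times in the control. In microglia-like cells it was Junb with Egr1, at 2.001 times in the mutant and 2.35 times in the control, and 166 of 210 pairs were above 1 in both libraries. Jun with Ier2 led in endothelial-like cells (1.46 times in the mutant and 1.41 times in the control) and Nr4a1 with Klf2 in fibroblast-like cells (1.63 times in the mutant and 1.62 times in the control). Cells share a library and a depth, so these ratios describe the cells and carry no test.

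In microglia-like cells the level of the set differed between shallow and deep cells. In those under 3000 UMIs the summed level was 1009 CPM (953 to 1068) in the mutant and 1376 CPM (1304 to 1450) in the control. In those over 12000 UMIs it was 1967 CPM (1942 to 1993) in the mutant and 2287 CPM (2260 to 2314) in the control. The shallow cells held 1.55% ribosomal protein UMIs in the mutant and 1.69% in the control, against 7.78% in the mutant and 6.18% in the control in the deep cells. Their mean mitochondrial share was 5.09% in the mutant and 4.25% in the control, against 2.86% in the mutant and 3.11% in the control in the deep cells, and the part of cell state in these levels was not tested. Rhob, Ier5, Dusp6 and Nfkbia were all lower in the shallow cells, Rhob at 128 CPM in the mutant and 153 CPM in the control against 345 CPM in the mutant and 412 CPM in the control in the deep ones. Nfkbiz stood in shallow cells at 41.4 CPM in the mutant and 34.1 CPM in the control, against 24.3 CPM in the mutant and 24.4 CPM in the control in deep cells, a shallow to deep ratio of 1.70 (1.23 to 2.31) in the mutant and 1.40 (0.951 to 1.999) in the control. The mutant to control ratio of the summed level lay between 0.734 and 0.893 in the 4 depth ranges of microglia-like cells. Some other classes shared the pattern. Endothelial-like cells under 3000 UMIs stood at 2463 CPM in the mutant and 2698 CPM in the control, against 4780 and 5599 CPM at 3000 to 6000. Mutant fibroblast-like cells stood at 1467 CPM at 3000 to 6000 UMIs and 2297 CPM at 6000 to 12000. Control BAM-like cells did not share it, at 4258 CPM (3687 to 4892) under 3000 UMIs, 3281 CPM at 3000 to 6000 and 4013 CPM (3909 to 4119) over 12000. Nor did choroid plexus epithelium-like cells, at 471 CPM in the mutant and 468 CPM in the control at 3000 to 6000 UMIs. Over 12000 they stood at 436 CPM in the mutant and 413 CPM in the control. At 6000 to 12000 and over 12000 UMIs the mutant to control ratio was 0.732 and 0.795 in BAM-like cells and 0.875 and 0.769 in fibroblast-like cells.

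**Figure D5:**
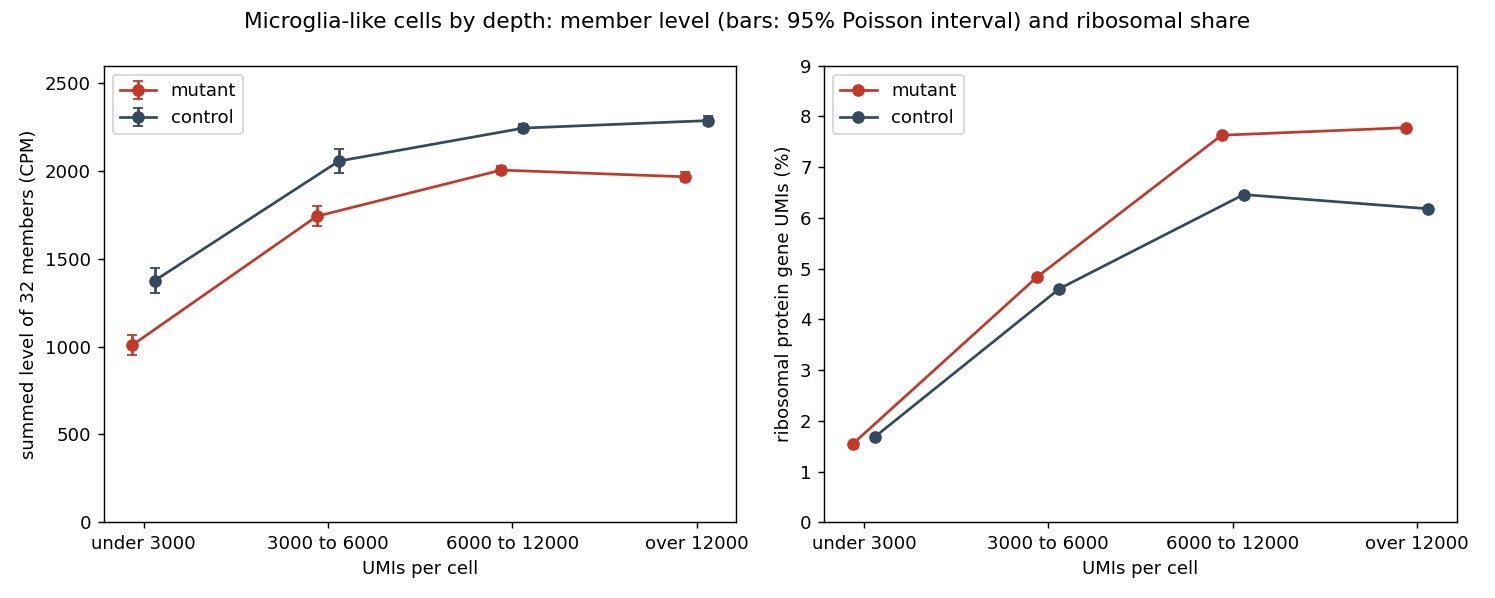
Left, summed level of the 32 members in microglia-like cells in 4 ranges of UMIs per cell, with 95% Poisson intervals, for the mutant and the control library; right, the percentage of UMIs from ribosomal protein genes in the same cells. Both are lowest in cells under 3000 UMIs, and the mutant points lie below the control points in the left panel at every depth.

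Cells over the limit of 10% mitochondrial UMIs, which were left out above, held less of the set in most classes. With mitochondrial UMIs left out of the total, microglia-like barcodes over the limit stood at 1378 CPM in the mutant and 1748 CPM in the control, against 1998 CPM in the mutant and 2300.1 CPM in the control in the kept cells. BAM-like barcodes over the limit stood at 1463 CPM in the mutant, on 7 cells, and 3387 CPM in the control, on 45 cells. Endothelial-like barcodes over the limit stood at 3191 CPM in the mutant and 2215 CPM in the control, against 4867 CPM in the mutant and 5191 CPM in the control in the kept cells. Fibroblast-like ones stood at 1874 CPM in the mutant and 2371 CPM in the control, against 2269 CPM in the mutant and 2847 CPM in the control. Astrocyte-like ones stood at 586 CPM in the mutant and 676 CPM in the control, against 656 and 720 CPM in the kept cells, mutant first. They numbered 155 in the mutant and 1015 in the control, beside 239 and 648 kept cells. The limit thus left out unequal parts of the astrocyte-like class, and the comparison of that class rests on the kept cells. In choroid plexus epithelium-like barcodes over the limit the level was 434 CPM in the mutant and 449 CPM in the control, close to the 461 CPM in the mutant and 444 CPM in the control of the kept cells.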

How the data were processed

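Single-cell RNA was measured in 1 mutant and 1 control library of sorted mouse brain cells. The deposited matrices hold counts of UMIs per gene and barcode, which the authors made with Cell Ranger 7.1.0, per the file headers, and GRCm38.p6 and mm10 are named in the submitters' processing notes. The sources used here do not state whether introns were counted or free RNA was removed, and no cell annotation was used.

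Barcodes needed 500 or more genes and no more than 10% mitochondrial UMIs, and doublets were removed at a Scrublet score of 0.2 (2.46% of mutant and 2.23% of control barcodes), since the automatic threshold marked 1.43% and 0.0522%. Cells were put in a class when at least 3 of its markers and 40% of them were detected, with a class minimum of marker CPM, so class names are rebuilt ones. Of the kept cells, 6139 mutant and 5614 control, those in no class or in several were left out. Class sums of each library were scaled by the UMI total of the class. Ratio intervals are exact conditional binomial ones, levels have exact Poisson and shares exact Clopper-Pearson intervals, all at 95% and for counting error only. The size rule was run on simulated Poisson class sums. These hold no spread between cells or libraries, so the run does not give the error rate of the rule on these data. Python 3.11.15, scanpy 1.11.5, numpy 2.4.6 and scipy 1.17.1 were used.

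The members and gene lists were chosen with earlier results of these data known. Named members are those that met the size rule in a class and the 3 of highest CPM in each class; from each other list, up to 4 genes with the largest ratio among those that met it. Alternatives covered mitochondrial limits, gene and UMI minimums, doublets, clustering, scaling, cell weights, thinning and fold. Subsets of BAM-like and fibroblast-like cells, and leaving out 3 cells per library, were chosen after seeing the data.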

Additional observations from a re-analysis of the deposited data

Results flagged for a closer look

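Ier3 met the size rule in opposite directions in 2 classes. Its ratio of mutant to control CPM was 1.85 (1.04 to 3.23) in astrocyte-like cells, at 11.2 CPM in the mutant and 6.03 CPM in the control, and 0.629 (0.498 to 0.798) in fibroblast-like cells, at 42.6 CPM in the mutant and 67.8 CPM in the control. The difference between the classes was not tested, since each genotype has 1 library. In astrocyte-like cells the 21 mutant UMIs included 19.0% from 1 cell. Without the 3 cells per library with most member UMIs the astrocyte-like ratio was 1.80 (0.994 to 3.18), short of the size rule. In that class 0 members were higher after thinning, at a fold of 2, with equal weight per cell and without the top cell per gene, so Ier3 did not meet the rule under these settings either.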

How the results depend on the processing

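No paired analysis was possible because each genotype has 1 library. Most counts of members in this section stand without the number measured and the share of all genes under the same setting. They show how the counts moved and cannot be read against the background. Of the counts of lower members, 64 values under an alternative stayed within 1.5 times the main count and 18 did not; of the counts of higher members, 59 did and 23 did not. The median log2 difference stayed within a tolerance for counting error in 65 cases. It moved past it in 1, in astrocyte-like cells with a mitochondrial limit of 5%, where it was 0.34 on 7 measured members. Values within the tolerance still varied, from -0.32 to 0.09 in endothelial-like and from -0.42 to -0.095 in fibroblast-like cells. The range was -0.46 to -0.34 in BAM-like and -0.24 to -0.14 in microglia-like cells.

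With that limit of 5%, 2 members were lower in BAM-like, 2 in fibroblast-like and 0 in astrocyte-like cells, and 1 was higher in fibroblast-like and 2 in astrocyte-like cells. Summed levels were then 1971 CPM in the mutant and 2257 CPM in the control in microglia-like cells, 2200.4 and 3213 CPM in fibroblast-like, 676 and 589.9 CPM in astrocyte-like, and 477 and 401.5 CPM in choroid plexus epithelium-like cells, mutant first, and 3356 CPM in mutant BAM-like cells. The variance ratio of control choroid plexus epithelium-like cells was 0.967, below 1. With no limit, 1 member was lower in astrocyte-like cells, and summed levels, mutant first, were 1923 and 2202 CPM in microglia-like, 4431 and 4550.2 CPM in endothelial-like, 2028 and 2407 CPM in fibroblast-like, 575 and 613 CPM in astrocyte-like, 409 and 401 CPM in choroid plexus epithelium-like and 3921 CPM in control BAM-like cells.

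With classes from clusters made without the members, 6 members were lower in microglia-like and 2 in endothelial-like cells, and 1 was higher in BAM-like and 0 in choroid plexus epithelium-like cells. Summed levels, mutant first, were 1923 and 2202 CPM in microglia-like, 2859.6 and 3786 CPM in BAM-like and 672 and 745 CPM in astrocyte-like cells, with 4082 CPM in mutant endothelial-like and 436 CPM in control choroid plexus epithelium-like cells. After thinning each cell to 2000 UMIs, 4 members were lower in BAM-like, 3 in fibroblast-like, 0 in endothelial-like and 0 in astrocyte-like cells, and 1 was higher in fibroblast-like and 0 in astrocyte-like cells. At a fold of 2, the lower members were 1 in microglia-like, 0 in BAM-like, 0 in endothelial-like and 1 in astrocyte-like cells, and 0 were higher in astrocyte-like cells. Trimmed mean scaling left 1 lower in microglia-like cells. With equal weight per cell, 4 were lower in endothelial-like cells, and 1 was higher in microglia-like, 1 in BAM-like and 0 in astrocyte-like cells.

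With at least 20 UMIs, 2 were higher in astrocyte-like and 2 in choroid plexus epithelium-like cells, and with no minimum 2 and 2 in those and 1 in microglia-like cells. Without the top cell per gene, or the 3 top cells per library (added after seeing the data), 0 were higher in astrocyte-like and 2 in choroid plexus epithelium-like cells. With doublets kept, 3 were higher in choroid plexus epithelium-like cells, at a mutant summed level of 439.9 CPM. Of the subsets added after seeing the data, BAM-like cells high in MHC class II genes had 3 lower and 1 higher, fibroblast-like cells with a Slc47a1 UMI had 1 higher and those without one had 0 lower and 1 higher. Without thinning, variance ratios, mutant first, were 3.98 and 4.14 in microglia-like, 5.52 and 6.67 in BAM-like, 4.93 and 4.996 in endothelial-like, 2.87 and 3.38 in fibroblast-like, 2.24 and 2.67 in astrocyte-like and 1.93 and 1.79 in choroid plexus epithelium-like cells. Fewer UMIs per gene follow from a stricter limit or thinning by construction, and the cause of the other moves was not tested. With 1 library per genotype, differences between animals, sorts and libraries cannot be told apart from genotype.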
